A study of Homo sapiens with 70 samples.

Results

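The 2 groups of Huh7 libraries that carry a single drug label, one labelled GW3965 and the other labelled sorafenib, were set against each other gene by gene. They hold 17 of the 70 poly-A RNA-seq libraries of the series, 8 labelled GW3965 and 9 labelled sorafenib. Huh7 is an established human hepatocellular carcinoma line, with no transgene or deletion named in the labels, and all its groups were grown in the same serum-containing medium. Cells were treated 1 day after seeding and collected 24 h later, with 5 µM GW3965, 2 µM sorafenib, both, or the solvent DMSO alone. The 8 Huh7 DMSO libraries and the 9 Huh7 libraries with both drugs are used beside the 2 single-drug groups, and the Hep3B groups of the same design, 9 libraries each, enter a final comparison. The labels number the libraries of a group but do not say that they came from separate cultures, and a p-value then reflects no more than how these libraries varied, possibly for technical reasons.

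The members were 11430 genes out of 20090 with a representative transcript, taken where the mean of the 2 tables' mean log2 CPM (read counts scaled to a common library total) was 1 or more. LACC1 and LCA5 were the genes just inside this minimum, at 1.0002 and 1.0005, and SYTL4 and RGL3 those just outside it, at 0.99968 and 0.99881. Of the 8660 genes below it, 515 passed an FDR of 0.05 in the table of the group labelled GW3965 and 32 in that of the group labelled sorafenib. Each table holds a log2 fold change over DMSO with a p-value, and no value of a single library, so the depth and the spread of single libraries are unknown. Levels below are therefore group levels in CPM implied by the deposited mean and fold change. They are given in the order DMSO, labelled GW3965, labelled sorafenib and, where a further value stands, both drugs. A difference below is the log2 fold change of the group labelled GW3965 minus that of the group labelled sorafenib, with a standard error (SE) recovered from the p-values. Its adjusted p comes from an approximate difference test with Benjamini-Hochberg adjustment over the 11430 genes. Of the genes named below, 11 reached the minimum in 1 of the 2 tables alone, through the group where they are higher: ABCC3, AMHR2, CYP3A7, HSD17B14, PDGFA, PKLR and PPP1R1A through the group labelled GW3965, and GP2, HAL, HK1 and SLC6A14 through the group labelled sorafenib. These had to differ, so their differences are given as a description, with no p. All 11 remain in the counts of genes past the difference test.

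GW3965 activates LXR, the liver X receptors. These nuclear receptors sense oxysterols and switch on cholesterol export and, through SREBF1, fatty acid synthesis. Sorafenib is a kinase inhibitor that acts on RAF and on several receptor tyrosine kinases. RAF feeds the MEK and ERK cascade, whose activity is read from genes such as DUSP6, the SPRY family and the ETV factors, which ERK signalling switches on. The integrated stress response is a separate route, in which phosphorylated eIF2α raises ATF4 and, with it, genes of amino acid supply and genes of stress adaptation such as CHAC1, TRIB3 and DDIT3.

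Genes that report on the 2 drugs changed mostly in the group with the other drug's label. Of 20 tested LXR target genes 14 rose in the group labelled sorafenib. In the group labelled GW3965 5 rose, ABCG1 and APOE among them. Over all genes tested 1.99% rose in the group labelled sorafenib and 13.4% in the group labelled GW3965. Of 18 tested ERK output genes 12 fell in the group labelled GW3965 and none in the group labelled sorafenib, as described below. Over all genes tested 18.0% and 1.33% fell in these groups. The cause of these directions was not tested. The groups are therefore named by their labels throughout, and every direction below holds for the labels as deposited.

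The group labelled GW3965 had many more called genes. At the authors' FDR under 0.05, 3584 genes (31.4% of those tested) were called in it, 1531 higher (13.4%) and 2053 lower (18.0%) than DMSO. In the group labelled sorafenib 379 genes (3.32%) were called, 227 higher (1.99%) and 152 lower (1.33%). The difference test called 1537 genes (13.4%), of which 766 (6.70%) were higher and 771 (6.75%) lower in the group labelled GW3965. With a minimum of 1 in each of the 2 tables, 1486 of these calls were kept. A difference of 2-fold or more was reached by 115 of the higher and 66 of the lower genes. Counts by the difference test in the gene lists below are to be read beside the shares of 6.70% higher and 6.75% lower. Counts against DMSO are to be read beside the shares of the same group given above. Over all genes tested the median difference was -0.02 and the median SE of a difference was 0.14. Genes called in both tables numbered 203 (1.78%), which is 5.66% of the calls of the group labelled GW3965 and 53.6% of those of the group labelled sorafenib. Of these, 45 genes (0.394%) had opposite signs and 158 (1.38%) the same sign, 108 of them higher (0.945%) and 50 lower (0.437%). Both tables use the same 8 DMSO libraries, so an error in these moves both fold changes the same way and adds to the count of genes moved alike.

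**Figure D1:**
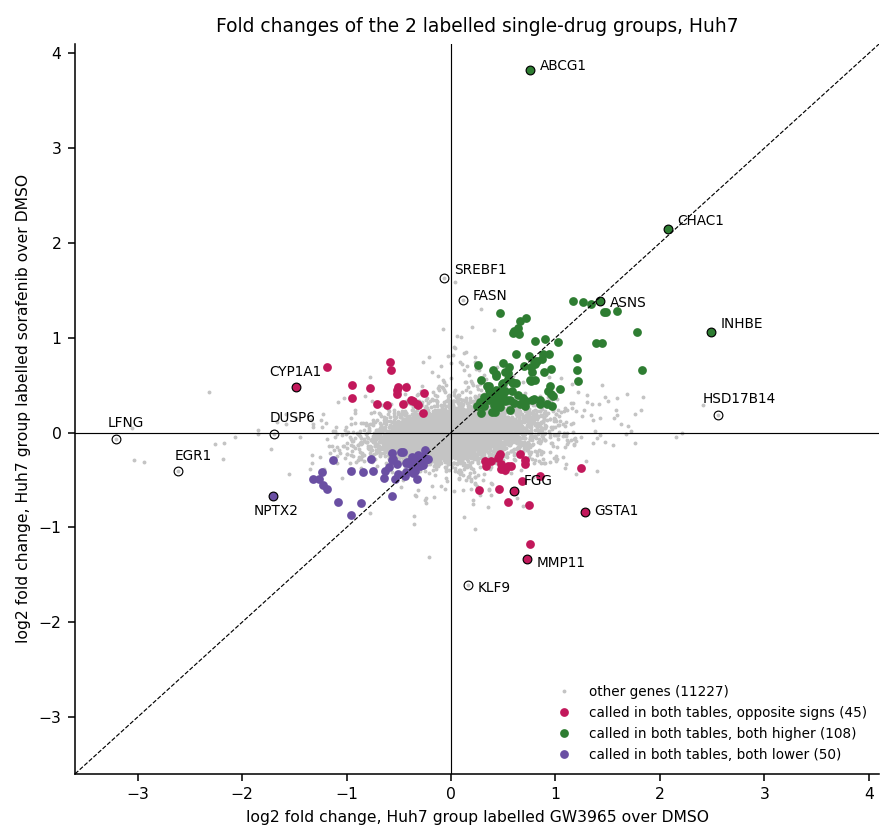
Log2 fold change over DMSO in the Huh7 group labelled GW3965 (x axis) and in the group labelled sorafenib (y axis) for the 11430 genes, 1 point per gene. Colours mark the 45 genes called in both tables with opposite signs, the 108 called higher in both and the 50 called lower in both, and the dashed line marks equal fold changes; ABCG1 lies far above that line and DUSP6, EGR1 and LFNG far to its left.

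LXR target genes were lower in the group labelled GW3965 than in the group labelled sorafenib. Of 23 listed genes 20 were tested, 12 were lower and 3 higher by the difference test, and the median difference was -0.65. Against DMSO 14 rose and none fell in the group labelled sorafenib, while 5 rose and 1 fell in the group labelled GW3965. ABCG1, which exports cholesterol to lipoprotein particles, stood at 2.86, 5.09, 38.2 and 57.5 CPM. It rose in both single-drug groups, by 0.75 and 3.82 log2 units in the authors' deposited tables, and the difference was -3.07 (SE 0.19, adjusted p = 1.17e-54). It was thus among the genes moved alike by sign and the third lowest of all differences. SREBF1, the factor that drives fatty acid synthesis genes, stood at 128, 124, 387 and 221 CPM, a difference of -1.69 (SE 0.13, adjusted p = 4.14e-35). Its level in the group labelled GW3965 was close to DMSO, and the level with both drugs lay between the single-drug groups.

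The transporters and lipid genes of the same list followed that order. ABCA1, which loads cholesterol onto apolipoprotein A-I, stood at 103, 129, 249 and 382 CPM, a difference of -1.01 (SE 0.14, adjusted p = 1.08e-10). MYLIP, a ubiquitin ligase, stood at 8.797, 9.61, 17.3 and 16.1 CPM, a difference of -0.90 (SE 0.18, adjusted p = 2.26e-05). LPCAT3, which remodels phospholipids, stood at 45.2, 52.9, 96.1 and 74.4 CPM, a difference of -0.92 (SE 0.14, adjusted p = 4.30e-09). For these 3 genes the level in the group labelled GW3965 was the nearer to DMSO, and the fold change of that group did not pass the authors' FDR. OSTalpha and OSTBETA, the subunits of a basolateral bile acid exporter, differed by -1.55 (SE 0.31) and -1.33 (SE 0.22). For OSTBETA the levels were 3.79, 2.56, 6.28 and 2.68 CPM, and it fell in the group labelled GW3965 while it rose in the group labelled sorafenib. The 3 exceptions were MLXIPL, which encodes the carbohydrate-response factor ChREBP, and the apolipoprotein genes APOE and APOC1, all higher in the group labelled GW3965. MLXIPL stood at 3.36, 7.12, 2.596 and 3.32 CPM, a difference of 1.46 (SE 0.36, adjusted p = 0.00116). APOE stood at 567, 1068, 626 and 876 CPM, a difference of 0.73 (SE 0.19, adjusted p = 0.00193).

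**Figure D2:**
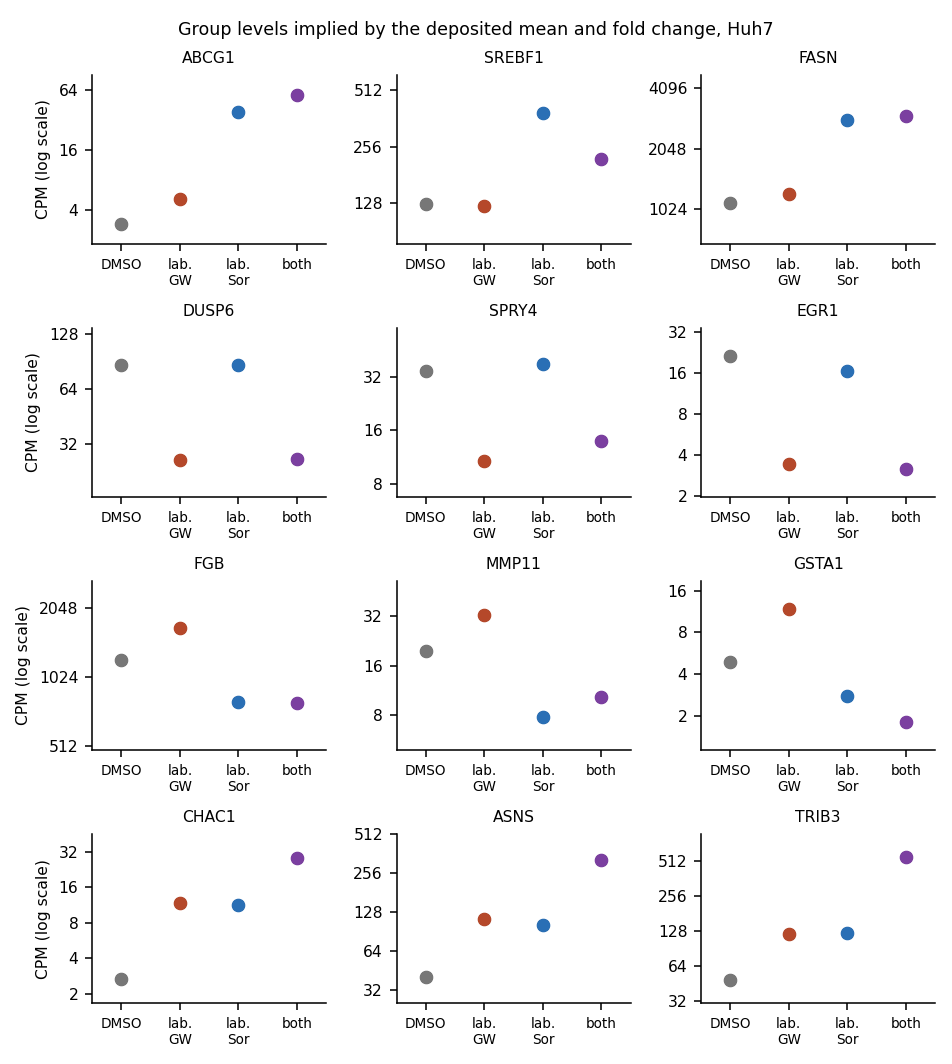
Group levels in CPM (y axis, log scale) of 12 genes in the 4 Huh7 groups (x axis: DMSO, labelled GW3965, labelled sorafenib, both drugs), 1 point per group, implied by the deposited mean and fold change and without error bars because values of single libraries were not used here. ABCG1, SREBF1 and FASN are higher in the group labelled sorafenib than in the group labelled GW3965, DUSP6, SPRY4 and EGR1 are low in the group labelled GW3965 and with both drugs, and CHAC1, ASNS and TRIB3 are highest with both drugs.

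Fatty acid synthesis genes leaned the same way. Of 21 tested genes 11 were lower and 2 higher in the group labelled GW3965, with a median difference of -0.43. FASN, the fatty acid synthase, stood at 1101, 1218, 2838 and 2969 CPM, a difference of -1.28 (SE 0.16, adjusted p = 2.35e-12). ACSL3, which activates long-chain fatty acids, moved oppositely: it stood at 203, 137, 319 and 308 CPM, a difference of -1.23 (SE 0.13, adjusted p = 9.11e-18). SCD, the desaturase that makes oleate, stood at 1850, 2203, 3165 and 3549 CPM, a difference of -0.57 (SE 0.14, adjusted p = 7.93e-04). All 3 were highest in the group labelled sorafenib among the single-drug groups. The desaturase genes FADS1 and FADS2 differed by -0.76 (SE 0.20) and -0.73 (SE 0.14). The exceptions were DGAT2 and DGAT1, the last enzymes of triglyceride synthesis. DGAT2 stood at 54.01, 95.04, 52.04 and 66.8 CPM, a difference of 0.83 (SE 0.16, adjusted p = 1.30e-05). ACSS2, which makes acetyl-CoA from acetate, rose in both groups and did not pass the difference test, at 37.6, 108, 87.6 and 151 CPM and a difference of 0.21 (SE 0.14, adjusted p = 0.356).

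Cholesterol synthesis genes as a list had a median difference close to that of all genes, -0.02. All 27 were tested, 4 were lower and 1 higher, and the median difference was 0.01. By the difference test 6.75% of all genes were lower and 6.70% higher. In the group labelled sorafenib 12 rose and in the group labelled GW3965 7 rose, with none falling in either. Over all genes tested 1.99% and 13.4% rose in these groups. Among the 4 lower genes were INSIG1 and STARD4. INSIG1, which holds the SREBP complex in the endoplasmic reticulum, stood at 114, 119, 210 and 211 CPM, a difference of -0.86 (SE 0.15, adjusted p = 5.48e-07). STARD4, a sterol transport protein, stood at 29.3 CPM in the group labelled sorafenib and 22.7 CPM in the group labelled GW3965, a difference of -0.40 (SE 0.14). The fold change of the group labelled GW3965 did not pass the authors' FDR for either gene. LSS, which closes the sterol ring, rose in both groups, at 127, 210 and 202 CPM, with a difference of -0.00 (SE 0.13, adjusted p = 0.994). TM7SF2, a sterol reductase, was the 1 higher gene, at 34.7, 51.5 and 34.96 CPM and a difference of 0.53 (SE 0.13, adjusted p = 0.00155).

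ERK output genes were the list with the lowest median difference, -0.88. Of 18 tested genes 12 were lower and none higher in the group labelled GW3965. Against DMSO 12 fell in that group, whose median fold change was -0.89, and none fell in the group labelled sorafenib, whose median was -0.02. DUSP6, an ERK phosphatase, stood at 86.5, 26.4, 86.4 and 26.7 CPM, a difference of -1.68 (SE 0.26, adjusted p = 1.43e-08). SPRY4, an inhibitor of receptor tyrosine kinase signalling, stood at 34.6, 10.8, 37.8 and 14.01 CPM, a difference of -1.78 (SE 0.37, adjusted p = 8.37e-05). ETV4, an ETS factor, stood at 67.5, 28.4, 74.4 and 39.1 CPM, a difference of -1.37 (SE 0.30, adjusted p = 1.34e-04). In all 3 the group labelled sorafenib lay close to DMSO, and the group with both drugs lay nearer to the group labelled GW3965 than to DMSO. DUSP5, SPRY2 and SPRY1 differed by -1.55 (SE 0.30), -1.42 (SE 0.21) and -1.10 (SE 0.20). MYC, a growth-promoting factor, stood at 50.6, 44.2, 63.3 and 161 CPM: it rose in the group labelled sorafenib, was not called in the group labelled GW3965, and the difference was -0.54 (SE 0.15, adjusted p = 0.00674). CCND1, cyclin D1, stood at 209, 187 and 206 CPM, and its difference of -0.15 (SE 0.14) did not pass the test (adjusted p = 0.524). PHLDA1 was the 1 tested member with a difference above 0, 0.42 (SE 0.22), which did not pass either.

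EGR1, an immediate early transcription factor that serum and growth factors induce through ERK, had the lowest difference of both the ERK list and the immediate early list. It stood at 21.4, 3.43, 16.5 and 3.14 CPM, a difference of -2.20 (SE 0.36, adjusted p = 1.16e-07), so that the group labelled GW3965 and the group with both drugs were low and the group labelled sorafenib lay nearer to DMSO. Its promoter is shown because it carries a CArG box, the element through which serum response factor acts on growth-factor-induced genes. The 250 bases before the transcript start in RefSeq (GRCh38.p14, chr5:138465229-138465478, plus strand) hold such a box, in capitals, starting 105 bases before the start.
EGR1: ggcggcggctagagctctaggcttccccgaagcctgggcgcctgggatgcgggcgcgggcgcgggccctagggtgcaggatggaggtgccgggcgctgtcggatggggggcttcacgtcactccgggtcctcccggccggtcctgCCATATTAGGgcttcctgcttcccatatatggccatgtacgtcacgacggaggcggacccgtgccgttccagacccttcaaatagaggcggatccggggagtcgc
The exact letters in capitals, on either strand, were in 0.0313% of the 35116 RefSeq promoter windows of that length. They were in 1 of the 10 ERK output genes matched to the RefSeq table. Only this spelling of the CArG box was searched and marked. A further stretch of CArG form stands in lower case between the capitals and the start of EGR1. The shares therefore do not describe the CArG box in all its spellings. A match is a description of the letters and shows no binding.

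**Figure D3:**
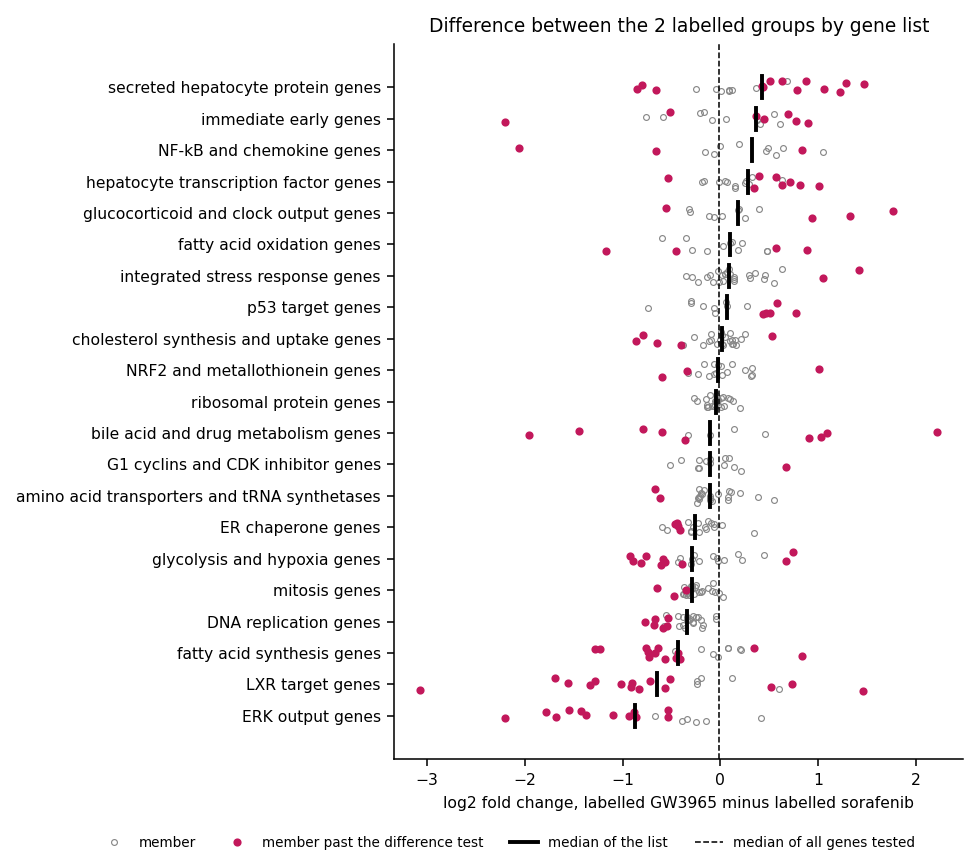
Differences of log2 fold change, labelled GW3965 minus labelled sorafenib (x axis), for the tested members of the 21 gene lists (y axis, ordered by median), 1 circle per gene, filled where the difference test passed. Black bars are list medians and the dashed line is the median of all 11430 genes, -0.02; ERK output (-0.88) and LXR target genes (-0.65) have the lowest medians and secreted hepatocyte protein genes (0.43) the highest.

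Of the 17 tested immediate early genes 5 were higher and 2, EGR1 and IER2, lower in the group labelled GW3965, and the median difference was 0.36. Against DMSO 7 rose and 4 fell in the group labelled GW3965, EGR1, CTGF, NR4A2 and IER2 being the 4. Over all genes tested 13.4% rose and 18.0% fell in that group. KLF2, a Krüppel-like factor, moved oppositely, at 14.7, 21.5, 11.5 and 9.96 CPM and a difference of 0.90 (SE 0.15, adjusted p = 1.05e-07). KLF6 stood at 27.9, 47.9, 27.3 and 110 CPM, a difference of 0.78 (SE 0.13, adjusted p = 1.10e-07). JUNB, an AP-1 subunit, stood at 12.3, 19.8, 12.04 and 33.5 CPM, a difference of 0.69 (SE 0.15, adjusted p = 2.79e-04). KLF6 and JUNB were near DMSO in the group labelled sorafenib and highest with both drugs. CTGF, a matricellular protein, stood at 161, 88.3 and 151 CPM, and its difference of -0.76 (SE 0.30) did not pass (adjusted p = 0.0713).

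Among the 45 genes moved oppositely, 25 rose in the group labelled GW3965 and fell in the group labelled sorafenib, and 20 did the reverse. All 45 passed the difference test, which opposite signs past the FDR in both tables almost ensure, so this adds no support. Their median difference in size was 0.93. With both drugs 32 of the 45 were called against DMSO, 14 with the sign of the group labelled GW3965 and 18 with that of the group labelled sorafenib. The single-drug signs thus did not settle on one side when the drugs were combined.

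Ranked by the smaller of the 2 fold changes in size, the largest opposite change was in GSTA1. This is a glutathione transferase gene whose near-identical copies could share its reads. It stood at 4.903, 11.8, 2.77 and 1.800 CPM, a difference of 2.11 (SE 0.22, adjusted p = 1.44e-18). MMP11, a matrix metalloproteinase, stood at 19.7, 32.6, 7.89 and 10.3 CPM, a difference of 2.06 (SE 0.18, adjusted p = 2.01e-28). TP53INP2, a regulator of autophagy, stood at 31.1, 52.5, 13.8 and 36.05 CPM, a difference of 1.93 (SE 0.13, adjusted p = 4.09e-43). Each of the 3 was highest in the group labelled GW3965, and only TP53INP2 returned to near DMSO with both drugs. PKLR, the liver pyruvate kinase, stood at 2.37, 3.91, 1.42 and 1.77 CPM, a difference of 1.51 (SE 0.27). LYST, a lysosomal trafficking protein, stood at 6.14, 8.93, 3.71 and 4.197 CPM, a difference of 1.27 (SE 0.21, adjusted p = 7.98e-08). GABRA2, a GABA receptor subunit, stood at 3.896, 6.23, 2.73 and 4.06 CPM, a difference of 1.19 (SE 0.23, adjusted p = 1.29e-05). GP2, a zymogen granule glycoprotein, moved the other way, at 2.67, 1.19, 4.27 and 0.705 CPM and a difference of -1.88 (SE 0.25).

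The fibrinogen genes FGA, FGB and FGG, which lie side by side in the genome and encode the 3 chains of the clotting protein, all moved oppositely. FGG stood at 638, 973, 414 and 362 CPM, a difference of 1.22 (SE 0.13, adjusted p = 1.89e-19). FGB stood at 1216, 1673, 800 and 787 CPM, a difference of 1.06 (SE 0.14, adjusted p = 5.57e-12). FGA stood at 1001, 1205, 655 and 385 CPM, a difference of 0.87 (SE 0.13, adjusted p = 6.76e-10). In all 3 the group labelled GW3965 was above DMSO, the group labelled sorafenib below it, and the group with both drugs below DMSO as well.

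Genes of bile acid and drug handling appeared on both sides. CYP1A1, a target of the aryl hydrocarbon receptor, stood at 5.16, 1.85, 7.17 and 1.51 CPM, a difference of -1.96 (SE 0.19, adjusted p = 3.25e-21). NR0B2, the bile acid-induced corepressor SHP, stood at 5.38, 2.796, 7.56 and 5.18 CPM, a difference of -1.45 (SE 0.19, adjusted p = 2.89e-11). Both fell in the group labelled GW3965 and rose in the group labelled sorafenib. In the opposite direction AKR1D1, a reductase of bile acid synthesis, stood at 12.1, 29.1, 9.27 and 11.4 CPM, a difference of 1.62 (SE 0.15, adjusted p = 3.48e-24). AKR1D1, and KLB below, were named after their values were seen. KLB, a coreceptor for FGF19 and FGF21, stood at 148, 236, 125 and 94.2 CPM, a difference of 0.89 (SE 0.12, adjusted p = 2.08e-10). Of the 13 tested genes of the bile acid and drug list, 4 were higher and 5 lower in the group labelled GW3965, and the median difference was -0.10. CYP3A7, a fetal cytochrome with near-identical relatives that could share its reads, stood at 1.41, 6.51, 1.42 and 2.12 CPM, a difference of 2.22 (SE 0.32). ABCC3, an exporter of conjugated bile acids, stood at 2.16, 3.93, 1.85 and 5.19 CPM, a difference of 1.09 (SE 0.27). Both entered the comparison through the group labelled GW3965 alone, and they are 2 of the 4 higher genes of this list.

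**Figure D4:**
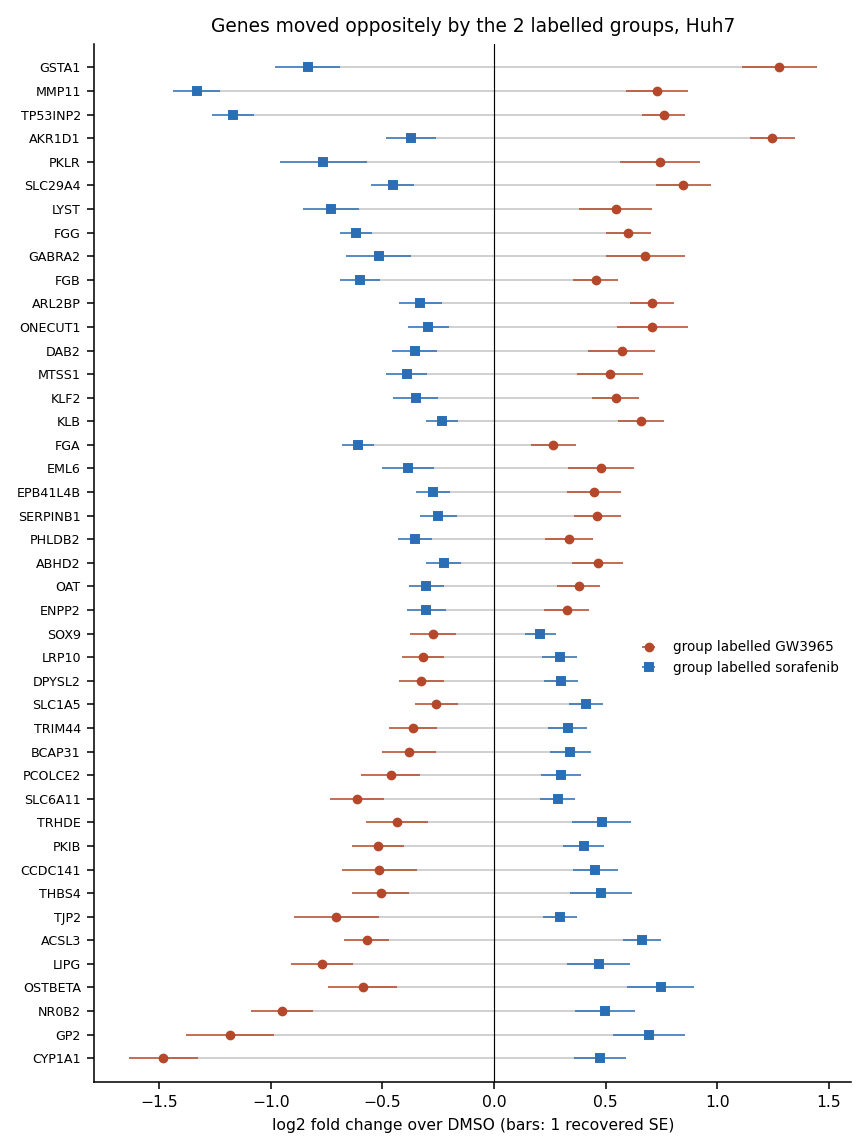
Log2 fold change over DMSO (x axis) of 43 of the 45 genes moved oppositely (y axis, ordered by difference), as circles for the group labelled GW3965 and squares for the group labelled sorafenib, with bars of 1 recovered SE. The 24 genes at the top are above 0 in the group labelled GW3965, from ENPP2 up to GSTA1, and the 19 at the bottom are below 0 in it, from SOX9 down to CYP1A1.

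The 158 genes moved alike included most of the integrated stress response. Of 27 tested genes of that list 17 were called higher in both groups, against 0.945% of all genes, and none lower in both. The list median was 0.85 in the group labelled GW3965 and 0.64 in the group labelled sorafenib, the median difference was 0.08, and 2 genes were higher and none lower by the difference test. The median with both drugs was 2.22. CHAC1, which degrades glutathione, stood at 2.66, 11.7, 11.2 and 28.2 CPM. It rose by 2.07 and 2.15 log2 units in the authors' deposited tables, and the difference was -0.07 (SE 0.33, adjusted p = 0.925). ASNS, asparagine synthetase, stood at 40.4, 112, 102 and 322 CPM, a difference of 0.05 (SE 0.31, adjusted p = 0.948). TRIB3, a pseudokinase induced with CHOP, stood at 48.9, 121, 123 and 554 CPM, a difference of -0.11 (SE 0.24, adjusted p = 0.827). For the 3 genes the single-drug groups differed by less than 1 SE, and the level with both drugs was the highest. A p above the threshold does not show that the groups responded equally.

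DDIT4, an mTORC1 inhibitor, stood at 16.8, 43.8, 41.6 and 108 CPM. STC2, a secreted stanniocalcin, stood at 16.8, 52.1, 39.6 and 134 CPM. SLC7A11, the cystine importer, stood at 22.9, 52.9, 58.2 and 109 CPM. The first and the last were at close levels in the single-drug groups, and all 3 were highest with both drugs. ADM2, a peptide hormone, likewise rose in both groups, at 6.26, 17.8, 14.7 and 37.5 CPM. Of the 2 genes of this list past the difference test, INHBE, an activin subunit, rose in both but more in the group labelled GW3965, at 3.96, 22.9, 8.02 and 53.2 CPM and a difference of 1.42 (SE 0.43, adjusted p = 0.0108). DDIT3, which encodes CHOP, stood at 6.25, 16.2, 7.55 and 43.6 CPM, a difference of 1.05 (SE 0.37, adjusted p = 0.0388), and its rise passed the authors' FDR in the group labelled GW3965 but not in the group labelled sorafenib. With no expression minimum the difference of DDIT3 did not pass (adjusted p = 0.0626). ATF3, a stress-induced factor, stood at 5.32, 12.5, 8.197 and 77.3 CPM, and its difference of 0.54 (SE 0.23) did not pass (adjusted p = 0.0967).

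Of 23 tested amino acid transporter and tRNA synthetase genes 10 were called higher in both groups and 1 moved oppositely. In the group labelled GW3965 10 rose and 3 fell, and in the group labelled sorafenib 13 rose and none fell. Over all genes tested 13.4% rose and 18.0% fell in the group labelled GW3965. In the group labelled sorafenib 1.99% rose and 1.33% fell. By the difference test 2 were lower in the group labelled GW3965 and none higher, and the median difference was -0.11. SLC43A1, a transporter of branched-chain amino acids, stood at 95.1, 188, 124 and 289 CPM, and its difference of 0.55 (SE 0.24) did not pass (adjusted p = 0.113). VARS, the valyl-tRNA synthetase, fell in the group labelled GW3965, at 173, 119, 183 and 160 CPM and a difference of -0.62 (SE 0.15, adjusted p = 0.00143). SLC1A5, a glutamine transporter, was the 1 member moved oppositely, at 82.7, 69.6, 109 and 128 CPM and a difference of -0.67 (SE 0.12, adjusted p = 3.03e-06). The promoters of CHAC1, which moved alike, and of SLC1A5, which moved oppositely, are shown because both hold the letters TGATGCAA, the form of the C/EBP-ATF response element through which ATF4 acts. In the 250 bases before the start (RefSeq, GRCh38.p14) the element, in capitals, begins 209 bases before the start of CHAC1 (chr15:40953221-40953470, plus strand), where it is read on the other strand as TTGCATCA, and 97 bases before that of SLC1A5 (chr19:46784815-46785064, minus strand).
CHAC1: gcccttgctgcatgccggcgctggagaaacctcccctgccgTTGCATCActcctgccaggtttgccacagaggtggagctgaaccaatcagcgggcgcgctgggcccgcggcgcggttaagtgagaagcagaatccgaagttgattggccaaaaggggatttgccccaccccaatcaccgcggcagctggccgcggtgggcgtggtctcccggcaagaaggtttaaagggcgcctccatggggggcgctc
SLC1A5: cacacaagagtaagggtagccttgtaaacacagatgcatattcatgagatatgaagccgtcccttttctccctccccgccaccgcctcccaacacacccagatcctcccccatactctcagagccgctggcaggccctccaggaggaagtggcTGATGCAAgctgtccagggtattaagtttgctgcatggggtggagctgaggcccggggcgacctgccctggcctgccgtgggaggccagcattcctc
This sequence, on either strand, was in 0.772% of all promoter windows, in 2 of 22 matched integrated stress response genes and in 1 of 33 matched genes moved oppositely. The same letters thus stand before a gene moved alike and a gene moved oppositely, and no binding was measured.

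The 16 motifs searched on both strands overlap in part, and the remaining 14 were described by their share of all windows. A direct repeat of the LXR half-site AGGTCA with 4 bases between the copies was in 0.0142% and the same repeat without its outermost bases in 0.0968%, and neither was in any of the 13 matched LXR target genes. TTTGAA, the core of the cell cycle homology region, was in 13.3% of windows and in 11 of 21 matched mitosis genes (52.4%). Here and above a gene counts where any of its windows holds the letters, so shares of genes and of windows are unlike measures. Other sets also departed from the window share, in both directions. GCGTG was in 47 of 82 matched genes called higher in both groups and in 3 of 15 matched secreted hepatocyte protein genes. TGATGCAAT was in 0.216%, TGACGTCA in 1.65%, its part TGACGT in 7.1% and TGAGTCA in 4.2% of windows. A sterol regulatory element was in 0.0342%, a palindromic homeodomain site in 0.0484%, CACGTG in 6.34%, CAAAGTCCA in 0.325%, TTGCGTG in 0.951%, its part GCGTG in 32.2% and the glucocorticoid response element in 0.327% of windows. A window without a motif says only that these letters are absent from 250 bases.

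Over all 108 genes called higher in both groups, the median fold change was 0.64 in the group labelled GW3965 and 0.53 in the group labelled sorafenib. With both drugs the median was 1.28, 103 of the 108 were called higher and 1 lower, and 92 lay above either single-drug fold change. Of the 108, 12 passed the difference test, 8 higher and 4 lower in the group labelled GW3965. The 4 lower included ABCG1, LPIN1, a phosphatidate phosphatase, and TMEM135, the last named after its values were seen.

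The 50 genes called lower in both groups had medians of -0.47 and -0.35, and -0.65 with both drugs, where 40 were called lower and 1 higher. MGLL, the monoglyceride lipase, stood at 11.98, 6.08, 6.68 and 8.298 CPM. HLF, a clock-controlled factor, stood at 8.21, 4.46, 4.97 and 5.19 CPM. NR4A2, an orphan nuclear receptor, stood at 13.3, 5.78, 8.94 and 2.35 CPM. In these 3 both single-drug groups were below DMSO, and for MGLL and HLF they lay close together. DKK1, a Wnt inhibitor, stood at 73.1, 30.8, 50.4 and 7.24 CPM, a difference of -0.67 (SE 0.26, adjusted p = 0.0636). ST3GAL6, a sialyltransferase, stood at 20.6, 13.8, 13.1 and 5.78 CPM, and GNPDA2, a glucosamine phosphate deaminase, at 3.95, 2.69, 2.84 and 2.79 CPM. HIST1H2BC, one of many near-identical histone genes, stood at 3.397, 1.57, 2.09 and 2.33 CPM. Of the 50, 7 passed the difference test, all lower in the group labelled GW3965, among them NPTX2, a pentraxin, at 5.94, 1.79, 3.83 and 2.36 CPM and a difference of -1.04 (SE 0.34, adjusted p = 0.0234).

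Secreted hepatocyte protein genes had the highest median difference of the lists, 0.43. Of 21 tested genes 10 were higher and 3 lower in the group labelled GW3965, and 3 were the fibrinogen genes already described. ITIH1, an inter-alpha-trypsin inhibitor chain, stood at 13.01, 33.9, 11.9 and 18.3 CPM, a difference of 1.47 (SE 0.17, adjusted p = 9.77e-15). APOC3, an inhibitor of lipoprotein clearance, stood at 7.35, 17.00, 6.86 and 6.17 CPM, a difference of 1.28 (SE 0.23, adjusted p = 3.36e-06). Both were near DMSO in the group labelled sorafenib. The 3 lower genes were APOA2, TTR and APOB. APOB, the structural protein of low-density lipoprotein, differed by -0.65 (SE 0.18, adjusted p = 0.00369).

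Hepatocyte transcription factor genes leaned the same way, with 7 of 20 higher and 1 lower and a median difference of 0.28. ONECUT1, a factor of liver development, moved oppositely, at 15.7, 25.8, 12.7 and 9.83 CPM and a difference of 1.00 (SE 0.18, adjusted p = 4.35e-06). PPARA, the fatty acid-sensing receptor, stood at 19.5, 32.2, 19.2 and 22.4 CPM, a difference of 0.72 (SE 0.20, adjusted p = 0.004795). NR5A2, a regulator of bile acid synthesis, stood at 45.7, 61.7, 39.3 and 45.4 CPM, a difference of 0.63 (SE 0.15, adjusted p = 4.82e-04). The 1 lower gene was NR2F2.

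Of 25 mitosis genes 23 fell in the group labelled GW3965 and 3 in the group labelled sorafenib, 3 were lower by the difference test, and the median difference was -0.29. Over all genes tested 18.0% fell in the group labelled GW3965 and 1.33% in the group labelled sorafenib. By the difference test 6.75% of all genes were lower. MKI67, a proliferation marker, stood at 178, 121, 156 and 76.03 CPM, and its difference of -0.37 (SE 0.20) did not pass (adjusted p = 0.224). CENPE, a kinetochore motor, stood at 51.1, 26.00, 41.3 and 17.3 CPM, a difference of -0.65 (SE 0.17, adjusted p = 0.00321). PLK1, a mitotic kinase, stood at 90.2, 60.1, 83.9 and 55.2 CPM, a difference of -0.48 (SE 0.12, adjusted p = 0.00206). Of 27 DNA replication genes 15 fell in the group labelled GW3965 and 1 in the group labelled sorafenib, 6 were lower by the difference test, and the median difference was -0.34. RRM2, a ribonucleotide reductase subunit, stood at 197, 97.6, 169 and 34.7 CPM, a difference of -0.77 (SE 0.27, adjusted p = 0.0347), which did not pass with no expression minimum (adjusted p = 0.0558). MCM10, a replication initiation factor, stood at 45.4, 27.1, 43.8 and 12.9 CPM, a difference of -0.68 (SE 0.22, adjusted p = 0.0214). With both drugs RRM2 and MCM10 were lower than in either single-drug group.

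For all genes tested the shares past the difference test were 6.70% higher and 6.75% lower. Of 14 tested G1 cyclin and CDK inhibitor genes 1 was higher and none lower. That gene was CDKN1C, an inhibitor of G1 cyclin kinases, at 3.93, 7.84, 4.76 and 4.02 CPM and a difference of 0.67 (SE 0.23, adjusted p = 0.0308). With no expression minimum it did not pass (adjusted p = 0.05002). Of 14 p53 target genes 5 were higher and none lower, with a median difference of 0.07. BBC3, the apoptosis gene PUMA, stood at 5.03, 9.36, 5.37 and 21.9 CPM, a difference of 0.77 (SE 0.25, adjusted p = 0.0199). TP53INP1 stood at 50.5, 83.00, 53.9 and 128 CPM, a difference of 0.58 (SE 0.13, adjusted p = 1.97e-04).

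Glycolysis and hypoxia genes were lower in the group labelled GW3965 in 8 of 23 and higher in 2, with a median difference of -0.29. PKM2, the pyruvate kinase of proliferating cells, stood at 772, 412, 771 and 344 CPM, a difference of -0.89 (SE 0.21, adjusted p = 6.24e-04). HK1 and HK2, which trap glucose as glucose 6-phosphate, differed by -0.93 (SE 0.24) and -0.81 (SE 0.13). HK1 is 1 of the 8 lower genes and reached the minimum through the group labelled sorafenib alone. LDHA, lactate dehydrogenase, stood at 506, 266, 454 and 179 CPM, a difference of -0.76 (SE 0.23, adjusted p = 0.0119). PKM2 and LDHA were thus near DMSO in the group labelled sorafenib, and PKLR, the liver form of pyruvate kinase, moved the other way. Of 20 ER chaperone genes 4 were lower and none higher, with a median difference of -0.26. HSPA5, the chaperone BiP, stood at 771, 554, 754 and 649 CPM, a difference of -0.44 (SE 0.14, adjusted p = 0.0152). HYOU1 stood at 219, 166, 229 and 229 CPM, a difference of -0.47 (SE 0.13, adjusted p = 0.00685).

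Glucocorticoid and clock output genes held the largest fall of the group labelled sorafenib among the genes named in every case. KLF9, a factor induced by glucocorticoids, stood at 7.87, 8.65, 2.64 and 4.44 CPM, a difference of 1.77 (SE 0.23, adjusted p = 7.88e-12). DBP, a clock output factor, stood at 3.22, 4.92, 2.01 and 2.08 CPM, a difference of 1.33 (SE 0.36, adjusted p = 0.00447). SGK1, a hormone-induced kinase, stood at 24.1, 29.2, 15.2 and 15.8 CPM, a difference of 0.94 (SE 0.23, adjusted p = 9.36e-04). FKBP5, a further glucocorticoid-induced gene, went the other way, at 30.2, 19.7, 29.1 and 23.5 CPM and a difference of -0.56 (SE 0.15, adjusted p = 0.00284). Of the 13 tested genes 3 were higher and 1 lower, with a median difference of 0.18.

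Of 12 NF-kB and chemokine genes 1 was higher and 2 were lower, with a median difference of 0.33. Over all genes tested 6.70% were higher and 6.75% lower. The few calls in the lists of this paragraph are not read as a trait of the lists. CCL20, a chemokine, was among the lowest differences of all genes, at 51.8, 11.3, 48.7 and 5.31 CPM and -2.06 (SE 0.46, adjusted p = 3.07e-04). CCR6, its receptor, stood at 21.1, 4.35, 19.7 and 1.12 CPM, a difference of -2.13 (SE 0.33, adjusted p = 2.86e-08). Both were near DMSO in the group labelled sorafenib and lowest with both drugs. Of 19 NRF2 and metallothionein genes 1 was higher and 2 were lower, with a median difference of -0.03. HMOX1, heme oxygenase, was the higher one, at 19.9, 33.1, 16.2 and 19.8 CPM and a difference of 1.01 (SE 0.14, adjusted p = 2.23e-10). NQO1, a quinone reductase, was lower, at 63.8, 59.03, 87.6 and 46.6 CPM and a difference of -0.60 (SE 0.17, adjusted p = 0.006601). Of 15 fatty acid oxidation genes 2 were higher and 2 lower, with a median difference of 0.10. FABP1, the liver fatty acid-binding protein, stood at 105, 101, 221 and 48.4 CPM, a difference of -1.17 (SE 0.25, adjusted p = 8.37e-05). ACSL1, an acyl-CoA synthetase, stood at 29.5, 49.4, 26.1 and 94.6 CPM, a difference of 0.89 (SE 0.19, adjusted p = 1.79e-04). Of 24 ribosomal protein genes none was called in either direction, and the median difference was -0.04.

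The lowest differences of all genes were found outside the lists in part. LFNG, a glycosyltransferase that modifies Notch, stood at 15.4, 1.63, 14.96 and 2.44 CPM, a difference of -3.15 (SE 0.28, adjusted p = 1.05e-25). MYH4, a muscle myosin with near-identical relatives, stood at 3.798, 0.452, 3.97 and 1.07 CPM, a difference of -3.10 (SE 0.26, adjusted p = 1.47e-29). CGA, the common subunit of the glycoprotein hormones, stood at 3.72, 0.446, 3.11 and 0.277 CPM, a difference of -2.74 (SE 0.25, adjusted p = 8.75e-26). Each was low in the group labelled GW3965 and with both drugs. SLC6A14, an amino acid transporter, stood at 2.92, 0.585, 3.91 and 0.254 CPM, a difference of -2.74 (SE 0.25). HAL, which degrades histidine, stood at 3.19, 0.4101, 2.62 and 0.511 CPM, a difference of -2.63 (SE 0.57). SH3RF3 stood at 3.27, 0.7697, 3.19 and 2.34 CPM, a difference of -2.02 (SE 0.23, adjusted p = 2.00e-15). SLC6A14 and HAL were below the minimum in the table of the group labelled GW3965. Of the 10 lowest, ABCG1 alone was so because of a rise in the group labelled sorafenib.

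Among the highest differences, HSD17B14, a hydroxysteroid dehydrogenase, stood at 1.52, 8.98, 1.72 and 13.1 CPM, a difference of 2.37 (SE 0.47). NPNT, a matrix protein, stood at 12.6, 57.3, 11.97 and 69.5 CPM, a difference of 2.20 (SE 0.28, adjusted p = 2.09e-12). AMHR2, the receptor for anti-Müllerian hormone, stood at 1.19, 6.28, 1.48 and 7.66 CPM, a difference of 2.11 (SE 0.50). HSD17B14 and AMHR2 were below the minimum in the table of the group labelled sorafenib. All 3 were near DMSO in the group labelled sorafenib and higher still with both drugs than in the group labelled GW3965. PDGFA, a growth factor, stood at 1.93, 6.598, 1.76 and 5.69 CPM, a difference of 1.87 (SE 0.37). PPP1R1A, a phosphatase inhibitor, stood at 1.98, 5.14, 1.52 and 1.66 CPM, a difference of 1.80 (SE 0.30), and returned to near DMSO with both drugs. Both were likewise below the minimum in the table of the group labelled sorafenib.

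Markers were read to check the labelled cell type. The summed levels of the 9 hepatocyte markers were 11650, 11671 and 11225 CPM, with 2 higher and 2 lower by the difference test. Those of 4 cholangiocyte markers were 230, 249 and 263 CPM, those of 6 stellate or fibroblast markers 88.5, 105 and 108 CPM, and those of 3 endothelial markers 1.32, 1.09 and 1.72 CPM. The 5 macrophage or leukocyte markers summed to 195, 57.8 and 203 CPM, nearly all from LYZ, lysozyme, while PTPRC and CD3E were below 0.5 CPM in each group. LYZ stood at 192, 52.7 and 199 CPM, a difference of -1.88 (SE 0.20, adjusted p = 6.04e-19). CD68 stood at 2.75, 3.24 and 2.59 CPM and CD14 at 1.26, 1.42 and 1.08 CPM. PTPRC, CD3E, CD14 and the 3 endothelial markers were thus below the expression minimum, while LYZ and CD68 were above it. The endothelial marker CDH5, at 0.230, 0.244 and 0.524 CPM, passed the authors' FDR as higher in the group labelled sorafenib.

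The same labelled difference was computed in Hep3B, a second hepatocellular carcinoma line with its own DMSO libraries. Among 11414 genes tested in both lines, the Hep3B difference test called 43.8% and the test of the difference between the lines called 42.3%. In this joint set the Huh7 difference was past its test in 1451 genes. Of these, 990 were also called in Hep3B, 934 with the opposite sign and 56 with the same sign. Across the 11414 genes, which are not independent replicates, Pearson's r between the lines' differences was -0.55, given as a description. ABCG1 differed by 5.40 (SE 0.29) in Hep3B, where the group labelled GW3965 is the higher, against -3.07 in Huh7. DUSP6 differed by 2.73 (SE 0.14) in Hep3B against -1.68 in Huh7. The sign of both was thus reversed between the lines. Among stress response genes, CHAC1 differed by -2.71 (SE 0.17) in Hep3B against -0.07 in Huh7, where it rose in both groups. TRIB3 differed by -1.93 (SE 0.16) in Hep3B against -0.11 in Huh7. DDIT3 was reversed in sign, at -2.40 (SE 0.19) in Hep3B against 1.05 in Huh7. ATF3 stood at -2.33 (SE 0.22) in Hep3B against 0.54 in Huh7. The Huh7 differences of CHAC1, TRIB3 and ATF3 did not pass the difference test.

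**Figure D5:**
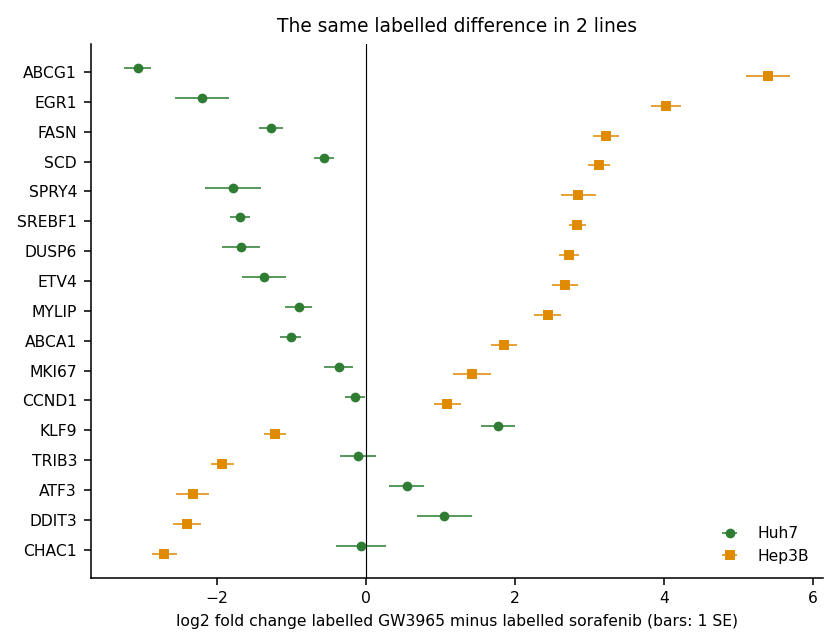
Log2 fold change, labelled GW3965 minus labelled sorafenib (x axis), of 17 genes (y axis) in Huh7 (circles) and Hep3B (squares), with bars of 1 SE. LXR target and ERK output genes are above 0 in Hep3B and below 0 in Huh7, while CHAC1 and TRIB3 are below 0 in Hep3B and near 0 in Huh7.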

How the data were processed

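Poly-A RNA was sequenced from Huh7 and Hep3B cells. Per the submitters' processing notes, edgeR was used (no version), on hg19, also given as GRCh37. Aligner, read counting, strand setting, normalization and edgeR's test were not given in the sources used here. The authors deposited, per the file headers, for each of 32321 RefSeq transcripts the log2 fold change over DMSO with its p-value and FDR, beside the mean log2 CPM, and marked 1 representative transcript per gene. No library was analysed on its own here, so no count test was run and depth is known only through the p-values.

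The groups were taken from the labels. The SE of a log2 fold change was recovered as its size over the normal score of the p-value. Where p was above 0.5 the median of its expression bin (20 bins) was used, and no SE was taken below that median. SEs were added in quadrature, which counts the shared DMSO error in both tables and makes the test conservative. On simulated data with 11430 genes the test recovered 95% of log2 differences of 1 and 100% of those of 2. No null gene was called in that simulation. It gave every gene the same variability and every library the same depth, and took p-values from the known variance. These shares therefore need not hold for the deposited data. Two-sided normal p-values were adjusted by Benjamini-Hochberg with a threshold of 0.05 (Python 3.11.15, numpy 2.4.6, pandas 2.3.3, scipy 1.17.1). Group levels in CPM were solved from the deposited mean, fold change and group sizes, and the DMSO level implied by the 2 single-drug tables differed with an SD of 0.01 log2 units.

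The members, the 21 gene lists and the motifs were chosen with earlier results of these data known. The text names the 10 highest and 10 lowest differences, 10 genes moved oppositely, 8 moved alike in each direction, up to 4 genes per list and 17 further genes. Other names were chosen after their values were seen. Alternatives covered thresholds, the expression minimum, the SE floor, the shared DMSO error and centring. A few genes that the rule or the figures would name are not reported here.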

Additional observations from a re-analysis of the deposited data

Results flagged for a closer look

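The labelled GW3965 minus labelled sorafenib difference was not the same in the lines for 17 genes examined in every case, each by a test of the difference itself. The same test called 42.3% of all 11414 genes. Given as the Huh7 difference minus the Hep3B difference on the log2 scale, the LXR target and lipid genes stood at -8.47 for ABCG1, -4.53 for SREBF1, -4.50 for FASN, -3.70 for SCD, -3.34 for MYLIP and -2.87 for ABCA1. The ERK output and growth genes stood at -6.23 for EGR1, -4.63 for SPRY4, -4.41 for DUSP6, -4.04 for ETV4, -1.24 for CCND1 and -1.79 for MKI67. The stress response genes stood at 3.45 for DDIT3, 2.87 for ATF3, 2.63 for CHAC1 and 1.82 for TRIB3, and KLF9 stood at 2.99. The adjusted p of this approximate difference test, with Benjamini-Hochberg adjustment over 11414 genes, was largest for CCND1, at 4.56e-07. The cause was not tested.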

How the results depend on the processing

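No paired analysis was possible because only the authors' comparison tables, and no values of single libraries, were used. For the same reason leaving out each replicate was not run. At an adjusted p under 0.01 the difference test called 469 genes higher and 399 lower. With the error of the shared DMSO libraries taken out it called 1823 higher and 1965 lower, and on simulated data 5.21% of the calls of that setting were false. At the authors' FDR under 0.01, 25 genes moved oppositely, 71 alike higher and 20 alike lower. With a log2 fold change of at least 0.5 in both tables the counts were 10, 49 and 7. With no expression minimum the median difference was 0.16 for immediate early genes and -0.0118 for glucocorticoid and clock output genes, because more genes enter these lists. The other alternatives kept these counts within 1.5 times and the list medians within the median SE. Of 153 genes followed singly none changed sign where called with the SE floor removed, the shared DMSO error taken out or the tables centred, and 17 gained a call with the shared DMSO error taken out. Of 116 of them past the difference test, 12 did not pass at 0.01: BBC3, CDC45, CDKN1C, DDIT3, HSPA5, ICAM1, INHBE, LDHA, MCM10, NPTX2, RRM2 and TXNRD1. With no expression minimum 4 did not pass, CDKN1C (adjusted p = 0.05002), DDIT3 (0.0626), RRM2 (0.0558) and TXNRD1 (0.0706), by the approximate difference test over more genes. With centred tables TXNRD1 did not pass (0.0573). A minimum of 1 in each table left 11 untested, those reaching it in 1 table alone, and a mean minimum of 3 left 30 untested.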
